A study of Homo sapiens with 4 samples.

Results

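APP and ZNF395 are 2 genes whose transcripts the study of these arrays reported as lowered in stability by TARBP2, and whose products it tied to reduced metastasis. They were taken as the records of the authors' deposited table whose RefSeq accession, with its version dropped, maps to either symbol. This gave 3 of 39745 records, 2 for APP and 1 for ZNF395, and 2 of 19468 named genes. The cells were MDA-LM2, a highly lung-metastatic derivative of MDA-MB-231, a human breast cancer line, and every array came from that 1 line. The knockdown group held 2 arrays, 1 from cells transfected with siTARBP2-1 and 1 from cells transfected with siTARBP2-2, small interfering RNAs (siRNAs) against TARBP2 of different sequence. The control group held 2 arrays from cells given the control siRNA, siControl-1 and siControl-2, which the series text calls mock-transfected. All cells received the same lipid transfection, and total RNA was taken 48 hours later and hybridised to Illumina expression BeadChips. The arrays measured RNA level, so neither the rate of decay nor metastasis was observed here.

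TARBP2 is a protein that binds double-stranded RNA and is best known as a partner of Dicer in the making of microRNAs. It also binds hairpins within messenger RNAs, and the study asked which transcripts change when it is removed. APP encodes the amyloid precursor protein, a cell-surface protein with 1 membrane span that is made in most tissues. Its outer part is shed by alpha-secretase, or it is cut by beta-secretase, after which gamma-secretase cuts within the membrane and releases the intracellular tail. ZNF395, also listed as HDBP2 and PBF, encodes a zinc finger DNA-binding protein that acts in the nucleus, and its transcript is known to be induced by low oxygen.

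Both genes stood higher after knockdown in the authors' deposited table. ZNF395 had a log fold change of siTARBP2 over siControl of 0.61 in the authors' deposited table, which is a level 53.0% higher if the value is a log2. APP had a gene value of 0.36, the mean of its records in the authors' deposited table, or 28.4% higher on the same reading. TARBP2, the target of the siRNAs, stood at -0.78 in the authors' deposited table, a ratio of 0.582. The SD of all named gene values in the authors' deposited table was 0.239. The table gives 1 value for each record with no error and no number of replicates, its log base is not stated, and no value could be followed back to an array. In RNA from a whole culture, more cells expressing a gene and more of its RNA per cell cannot be told apart. The same holds for fewer cells and less RNA per cell.

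**Figure D1:**
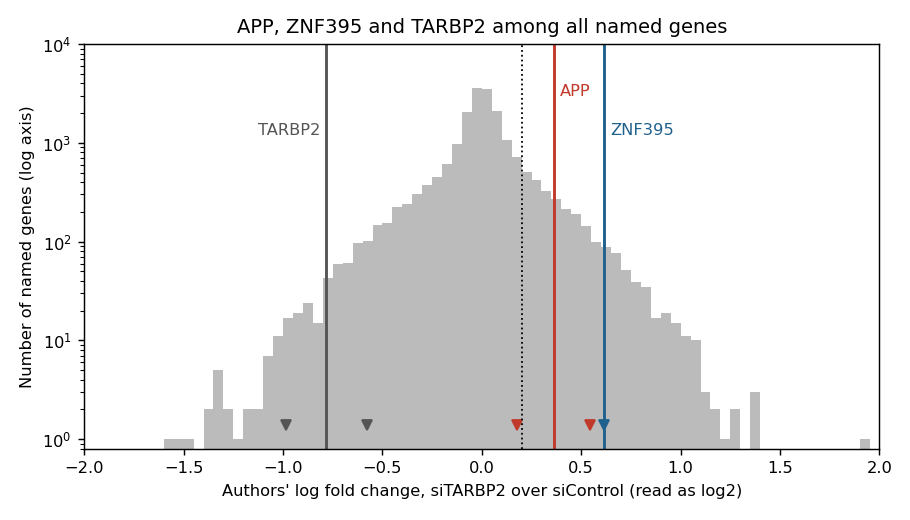
Number of named genes (log axis) by log fold change of siTARBP2 over siControl in the authors' deposited table, in bars 0.05 wide. Vertical lines mark the gene values of TARBP2 (-0.78), APP (0.36) and ZNF395 (0.61), triangles mark their single records, and the dotted line marks 0.2. Both APP and ZNF395 lie on the right side of the distribution, and genes reach beyond them up to 1.92.

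ZNF395 rested on a single record, NM_018660, the only transcript of the gene in the RefSeq table. The record stood at 0.614 in the authors' deposited table and belonged to the authors' class 1, which the table calls up-regulated and which holds every record above 0.2. Class 1 took in 9.11% of all records, and 12.7% of the curated records (prefix NM or NR). Of all 39745 records, 516 (1.30%) stood above that of ZNF395 in the authors' deposited table. Among named genes, to which no filter on detection was applied here, 351 (1.80%) stood above it. ZNF395 was thus gene number 352 from the top. With no second record, the authors' deposited table holds no repeat measurement of ZNF395.

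APP had 2 records that stood apart. NM_201414 stood at 0.546 in the authors' deposited table, in class 1, with 707 records (1.78%) above it, a place close to that of ZNF395. NM_000484 stood at 0.175 in the authors' deposited table, outside class 1, with 4121 records (10.4%) above it. The lower record missed the bound of class 1 by 0.025 on the log scale. NM_000484 is the transcript of isoform a, the longest form of the protein, and NM_201414 that of isoform c, which lacks the Kunitz-type protease inhibitor domain and prevails in neurons. These transcripts share most of their sequence, and the position of each probe is not given in the sources used here, so whether the records separate the isoforms was not tested. RefSeq lists 11 transcripts of APP, of which 9 had no record in the authors' deposited table.

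The place of APP depends on the record chosen. By the mean of both records, 1232 named genes (6.33%) stood above APP in the authors' deposited table, so that it was gene number 1233 from the top. With the highest record of each gene in place of the mean, 572 genes stood above it, and with the lowest record 2687. For ZNF395 the same choices gave 424 and 340 genes in the authors' deposited table. Under each choice of record named here ZNF395 stood nearer the top than APP.

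The gap between the APP records was large beside that of most genes. It came to 0.371 on the log scale of the authors' deposited table (SD of the 2 records 0.262). Over the 2131 genes with exactly 2 records, the median gap in the authors' deposited table was 0.118, and 302 genes (14.2%) had a larger gap than APP. The median gap was larger among genes with high values. Of the 222 genes with 2 records whose mean was above 0.2 in the authors' deposited table, the median gap was 0.283 and 88 (39.6%) had a larger gap than APP. In 131 of these 222 genes (59.0%) 1 record lay at or under 0.2 in the authors' deposited table, as for APP, and in 28 of them 1 record lay under 0. The spread between records mixes differences between probes, transcripts and sequence, and is no replicate error.

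**Figure D2:**
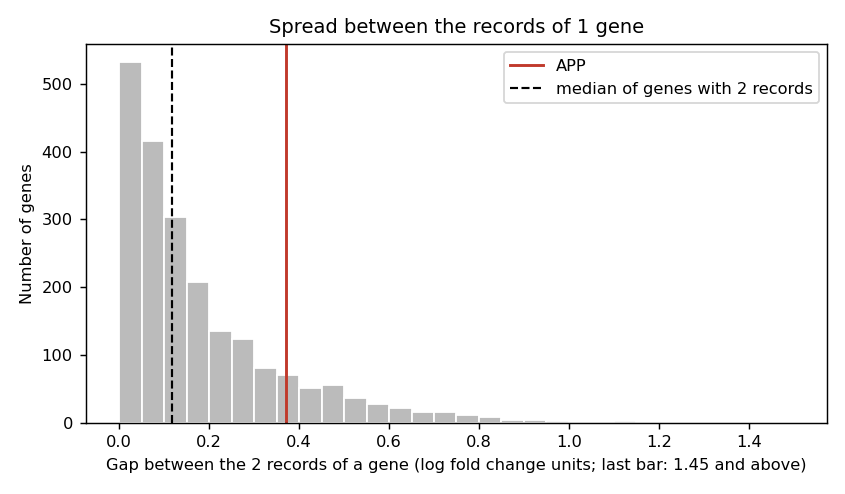
Number of genes by the gap between the 2 records of a gene, in log fold change units of the authors' deposited table, for the 2131 genes with exactly 2 records. The gap of APP (0.371, solid line) lies to the right of the median of 0.118 (dashed line), inside the long tail.

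Named genes above 0.2 made up 13.1% of all named genes in the authors' deposited table, and those below -0.2 made up 12.1%. Both APP and ZNF395 lie above 0.2, but they were chosen with these values known, so nothing is read from that count. Above a stricter bound of 0.4 lay 5.26% of named genes in the authors' deposited table, among them ZNF395 but not APP, and 5.13% lay below -0.4. The target itself was farther from 0 than either: 248 named genes were farther from 0 than TARBP2 in the authors' deposited table, against 699 for ZNF395 and 2406 for APP. In the authors' deposited table TARBP2 itself had records at -0.98 and -0.58, a slightly wider gap than that of the APP records. With 1 value for each gene, likeness could be measured only as nearness in value, with no samples behind it. The named genes next above and next below APP in the authors' deposited table were RALGDS and THEM6, and those next to ZNF395 were EIF5A and RNF10. The 3 genes next above APP (LARP4B, DDX49 and RALGDS) and the 3 next below (THEM6, MRPS7 and GTF2IRD1) lay within 0.00046 of it in the authors' deposited table. Around ZNF395 the corresponding genes (COPE, YEATS2, EIF5A, RNF10, ZNF282 and GMPR) lay within 0.0017.

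Relatives of APP and the enzymes that cut it divided around 0. In the authors' deposited table, 4 of 12 genes of the APP family and secretases lay above 0.2 and 2 lay below -0.2, with a median of 0.09. All named genes had a median of 0.002, with 13.1% above 0.2 and 12.1% below -0.2. APLP2, the closest relative of APP, stood at 0.52 in the authors' deposited table, the only gene of the list above APP. The other relative, APLP1, stood at 0.11 in the same authors' deposited table. The lowest gene was ADAM10, the main alpha-secretase, at -0.83 in the authors' deposited table. The related protease gene ADAM9 stood at -0.40, whereas ADAM17, an inducible alpha-secretase, stood at 0.24 in the authors' deposited table. BACE1, the beta-secretase, stood at -0.15 and its relative BACE2 at 0.17 in the authors' deposited table, both within 0.2 of 0. Of the genes of the gamma-secretase complex, PSEN2 stood at 0.33 and APH1B at 0.204 in the authors' deposited table. NCSTN, APH1A and PSENEN lay between -0.12 and 0.07 in the authors' deposited table. In the authors' deposited table PSEN2 had records at 0.31 and 0.34, closer together than those of APP.

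Among 22 measured genes that bind the tail of APP, sort it, clear its fragments or curb its cleavage, the authors' deposited table had 7 above 0.2 and 1 below -0.2, with a median of 0.06. The shares of all named genes were 13.1% and 12.1%. The highest was ITM2C, a membrane protein of the BRI family, at 0.56 in the authors' deposited table, followed by the sorting receptor gene SORT1 at 0.51. APBB3, of the Fe65 adaptor family that binds the APP tail, stood at 0.47, and its relatives APBB1 and APBB2 at 0.04 each in the authors' deposited table. Among the Mint adaptors APBA3 stood at 0.37, APBA2 at 0.30 and APBA1 at -0.01 in the authors' deposited table. MAPK8IP1, a JNK scaffold that also binds the tail, stood at 0.31 and the endocytic receptor gene LRP1 at 0.25 in the authors' deposited table. NUMB, an endocytic adaptor, was the 1 gene below, at -0.46, its records in the authors' deposited table lying at -0.62 and -0.30. The sorting receptor gene SORL1 (-0.02) and the peptidase genes IDE (-0.02) and MME (-0.03), whose products degrade amyloid peptide, stood near 0 in the authors' deposited table.

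Of 7 genes of RNA-binding proteins listed for APP messenger RNA, the authors' deposited table had none above 0.2 and 4 below -0.2, with a median of -0.21. Over all named genes 13.1% lay above 0.2 and 12.1% below -0.2, and the difference was not tested. HNRNPA2B1 stood at -0.38, PTBP1, a splicing repressor, at -0.32, ELAVL1, the stabilising factor HuR, at -0.26, and HNRNPC at -0.21 in the authors' deposited table. HNRNPC, whose product is known to bind APP messenger RNA, had records at -0.41 and -0.01 in the authors' deposited table, a slightly wider gap than that of APP. NCL, the nucleolin gene (-0.01), and FMR1, which represses translation of APP in neurons (-0.01), stood near 0 in the authors' deposited table. SRSF1 stood at 0.16 in the authors' deposited table.

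The closest relatives of ZNF395 did not stand with it. SLC2A4RG and ZNF704, which make up its zinc finger family, stood at 0.10 each in the authors' deposited table, within 0.2 of 0. ZNF395 is known to recruit the SIN3 histone deacetylase corepressor through SAP30, and the genes of that complex went apart. SIN3A, the scaffold, stood at 0.76 in the authors' deposited table, above ZNF395, whereas SAP30 stood at -0.76. The deacetylase gene HDAC1 stood at 0.09 in the authors' deposited table, and HDAC2 at -0.22. Of the 6 genes of this list, the authors' deposited table had SIN3A alone above 0.2, and SAP30 and HDAC2 below -0.2. The shares of all named genes were 13.1% and 12.1%.

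ZNF395 has been linked to the induction of interferon-stimulated genes and chemokines in human cells. The authors' deposited table had 1 of 8 such genes above 0.2 and 3 below -0.2, with a median of -0.07, beside 13.1% and 12.1% of all named genes. ISG15, a ubiquitin-like modifier, stood at 0.32, and the DNA sensor gene IFI16 at -0.92 in the authors' deposited table. IFIT2 stood at -0.56 and IFI44 at -0.54, against 0.05 for IFIT1 and -0.04 for IFIT3 in the authors' deposited table. The chemokine genes CXCL10 (0.10) and CXCL11 (-0.10) lay within 0.2 of 0 in the authors' deposited table.

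Over the 5 lists together, the authors' deposited table had 13 of 55 measured genes (23.6%) above 0.2 and 12 (21.8%) below -0.2, beside 13.1% and 12.1% of all named genes. The median of the 55 was 0.04 in the authors' deposited table, and the difference of these shares from those over all named genes was not tested. At 0.4 the counts were 5 above and 6 below. Some cell type markers also stood higher. Of 14 epithelial and luminal markers, the authors' deposited table had 4 above 0.2: CLDN7 (1.08), KRT8 (1.05), KRT19 (0.85) and SPDEF (0.33). FOXA1 (-0.41) was the 1 below -0.2. The other 9, among them EPCAM (0.007), CDH1 (-0.02) and KRT18 (0.04), lay within 0.2 of 0 by gene value. Of these, XBP1 (0.03) had records at 0.36 and -0.29. The authors' deposited table had 4 of 10 leukocyte markers above 0.2 and none below -0.2. Among them LAPTM5 stood at 0.75 and CD74 at 0.62, both above ZNF395 in the authors' deposited table, while the pan-leukocyte marker PTPRC lay within 0.2 of 0. Of 6 neuronal and glial markers, TUBB3 (0.35) and MBP (0.25) lay above 0.2 in the authors' deposited table, and of 10 fibroblast and endothelial markers ACTA2 (0.42) and COL1A1 (0.28). Of 10 mesenchymal and basal markers typical of MDA-MB-231, the authors' deposited table had SPARC (0.28) above 0.2 and MSN (-0.74), AXL (-0.52) and CAV1 (-0.27) below -0.2. CD44 (-0.10) had records from -0.59 to 0.20. The marker values are differences, not levels, so which markers the cells carried could not be read from them. The part of the markers in the APP and ZNF395 values was not tested.

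**Figure D3:**
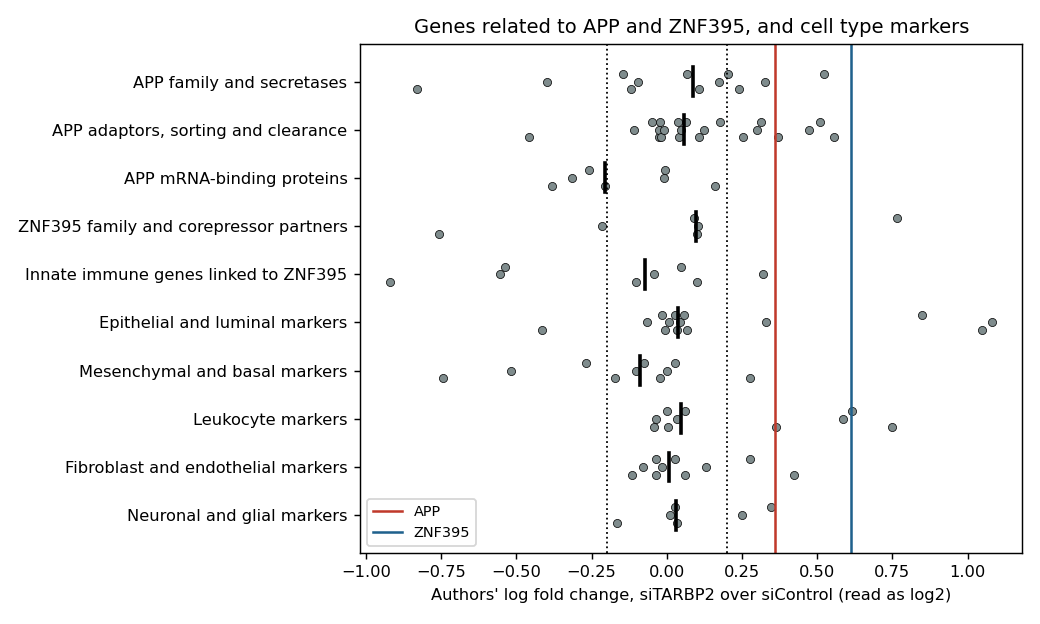
Log fold change of siTARBP2 over siControl in the authors' deposited table for every measured gene of 10 lists, 1 point a gene, with the median of each list as a black bar. Lines mark APP (0.36) and ZNF395 (0.61), and dotted lines 0.2 and -0.2. In each of the 5 upper lists most points lie to the left of APP, and SIN3A (0.76) is the only gene of those lists above ZNF395. Of all named genes 6.33% lie above APP and 1.80% above ZNF395. Both were chosen with their values known, so nothing is read from these positions.

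Most neighbours of either gene on its chromosome lay within 0.2 of 0, as did 14563 of all 19468 named genes. APP lies on chromosome 21, and of the 5 protein-coding genes on each side 9 had a record. None of the 9 lay above 0.2 in the authors' deposited table and 1 lay below -0.2, beside 13.1% and 12.1% of all named genes. They ran from -0.33 (MRPL39, with records at -0.65 and -0.01) to 0.03 (NCAM2). GABPA, a transcription factor gene, stood at -0.04 and CYYR1 at -0.07 in the authors' deposited table, next to APP on either side. ZNF395 lies on chromosome 8, and of its 10 neighbours EXTL3, an enzyme of heparan sulphate synthesis, stood at 0.38 in the authors' deposited table. The mitotic kinase gene PBK stood at -0.55 in the authors' deposited table, and the 8 others lay between -0.16 and 0.09. Thus 1 of the 10 lay above 0.2 and 1 below -0.2, beside the same 13.1% and 12.1% of all named genes. On either side of ZNF395, PNOC stood at -0.06 in the authors' deposited table and FBXO16 at -0.02.

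**Figure D4:**
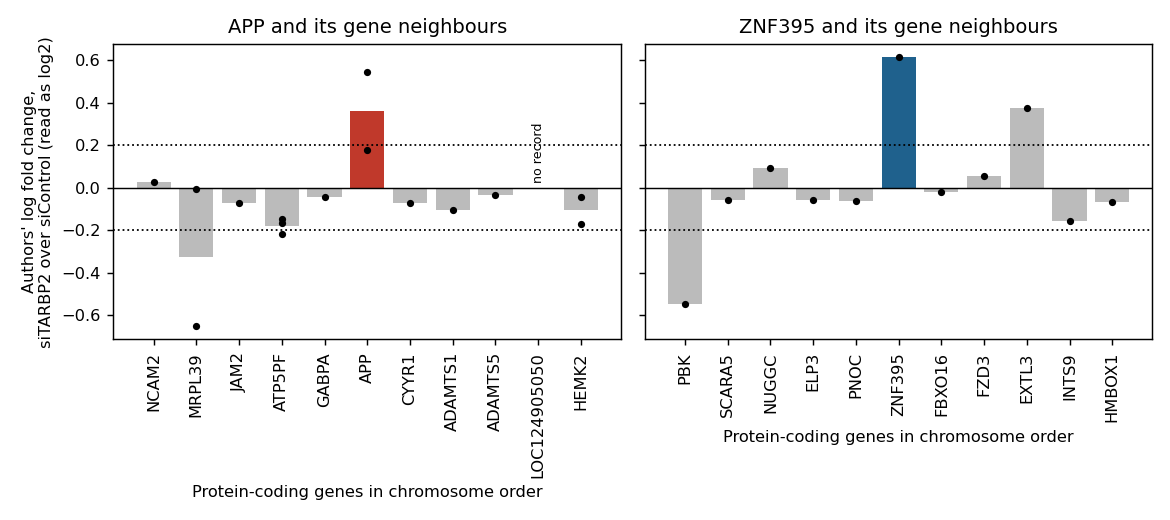
Gene values (bars) and single records (points) of the authors' deposited table for APP, ZNF395 and the 5 protein-coding genes on each side of them in chromosome order. APP (0.36) and ZNF395 (0.61) are the tallest bars of their panels, EXTL3 reaches 0.38, and LOC124905050 had no record.

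The probes of the arrays carry no gene names in the sources used here, so the level of APP and of ZNF395 on each array was not read. What can be given is how differences of their size were made up on the 4 arrays, over the 21075 probes detected on at least 2 of them. The same value holds a different place there. By mean difference on the authors' normalized values, 14.2% of these probes lay above the APP value and 4.87% above the ZNF395 value. Among named genes of the authors' deposited table these shares were 6.33% and 1.80%. Those genes were not filtered on detection here, whereas the probes were, so the shares have unlike backgrounds. On the log2 scale of the authors' normalized intensities, the 2 control arrays differed by more than the ZNF395 value at 0.270% of probes and by more than the APP value at 3.28%. The 2 siTARBP2 arrays differed from each other by more than the ZNF395 value at 32.4% of probes and by more than the APP value at 51.9%. A difference of the size of either gene was thus less common between the control arrays than between the siTARBP2 arrays. For the value of the lower APP record (0.175) the shares were 22.7% between the controls and 73.5% between the siTARBP2 arrays. These shares set single arrays against each other, whereas the members' values compare siTARBP2 with siControl, so the measures are unlike. Each siTARBP2 siRNA was on 1 array, so a difference between the siRNAs cannot be told apart from a difference between their arrays. The upper quartile of raw intensity was 327.1 on the siTARBP2-1 array and 252 on the siTARBP2-2 array. It was 241.4 on siControl-1 and 228.8 on siControl-2. The part of raw intensity in these shares was not tested. The siTARBP2-1 array lay above the mean control by more than the ZNF395 value at 14.9% of probes, and the siTARBP2-2 array at 1.76%. By more than the APP value they did so at 24.5% and 8.24% of probes. After background correction with neqc in place of the authors' normalization, the control arrays differed by more than the ZNF395 value at 3.49% of probes. The siTARBP2 arrays did so at 42.4%. For the APP value these shares were 12.5% and 62.7%, and for the value of its lower record 34.7% and 80.9%.

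Over all probes the difference from the mean control had an SD of 0.658 under siTARBP2-1 and 0.281 under siTARBP2-2. Probes picked for a large mean of the siRNAs therefore had to be carried mostly by siTARBP2-1, and the following values describe such probes with nothing read from them. At 485 probes the mean of the siRNAs minus the mean control lay within 0.05 of the ZNF395 value. At these probes the median difference from control was 1.08 under siTARBP2-1 and 0.14 under siTARBP2-2, siTARBP2-1 had the larger difference at 92.6%, and the siTARBP2-2 array lay below the mean control at 28.9%. On neqc values the window around the ZNF395 value held 638 probes, with medians of 0.96 and 0.25 and shares of 82.6% and 23.4%. At 1165 probes the mean lay within 0.05 of the APP value, with medians of 0.59 under siTARBP2-1 and 0.12 under siTARBP2-2. There siTARBP2-1 had the larger difference at 80.6% (73.2% in the window on neqc values), and siTARBP2-2 lay below the mean control at 29.7%. Both siTARBP2 arrays lay above both controls at 61.0% of the probes near the ZNF395 value and at 58.2% of those near the APP value, beside 19.4% of all probes. Since the probes were picked by their mean, that share had to exceed the one over all probes, and nothing is read from it. Whether APP and ZNF395 were among the probes that both siRNAs moved was not tested, and the windows assume that the authors' deposited table averages the siRNAs with equal weight.

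**Figure D5:**
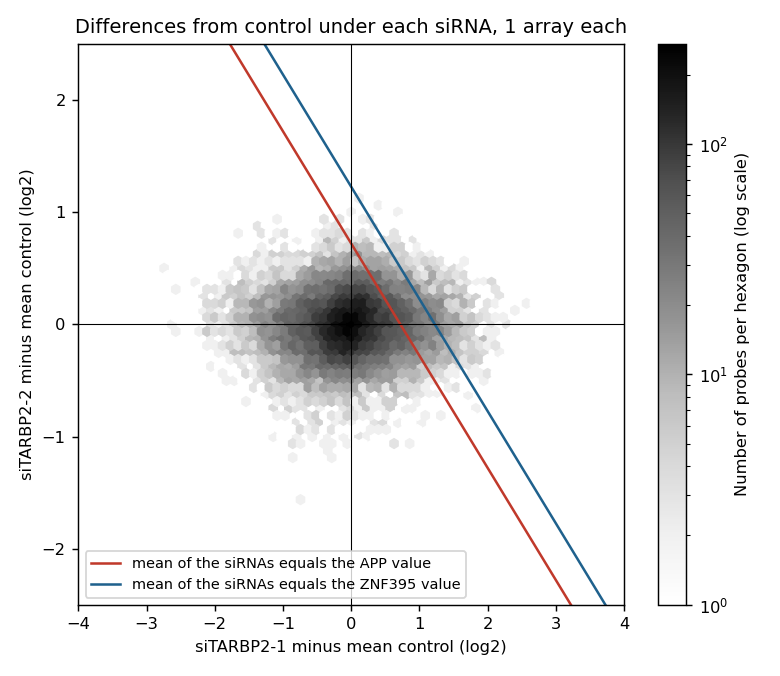
Difference from the mean control under siTARBP2-1 (horizontal) and siTARBP2-2 (vertical), in log2 units of the authors' normalized intensities, 1 array each, for 21075 probes. Grey hexagons count probes on a log scale, and the lines join points whose mean over the siRNAs equals the APP value (0.36) or the ZNF395 value (0.61). The cloud is wider along the siTARBP2-1 axis, and both lines cross it mainly at positive siTARBP2-1 values.

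Across the arrays, no single probe reached the threshold. In limma, 0 of 21075 probes (0.0%) had an adjusted p under 0.05, the smallest being 0.805. An unadjusted p under 0.05 was reached by 815, less than the share of 0.05 awaited with no difference at all. Of these, 388 were higher and 427 lower. Scaling each array to a common median turned that split to 559 higher and 225 lower. With siTARBP2-1 left out 4479 probes passed and with siTARBP2-2 left out 12035, counts that take the lone array to vary as little as the control pair. No p-value for APP or ZNF395 can be given from these arrays.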

How the data were processed

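RNA level was measured on 4 arrays, 2 for each group. The authors' deposited table of comparisons holds a log fold change for each accession and a class, per the file headers. These log fold changes, made by the authors by steps that are not stated here, were read as log2, an assumption, since the base, the contrast and the joining of probes are unknown. Raw intensity values were deposited without normalization, with a detection score between 0 and 1, a fraction from which the detection p was taken as 1 minus the score. A second deposited table holds the same intensity values after the authors' quantile normalization. The submitters' processing notes name lumi.

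Accessions were matched without versions to RefSeq (GRCh38.p14): 22411 records (56.4%) gained a symbol, giving 19468 genes, each valued as the mean of its records. Raw intensities went through neqc (offset 16), a filter (detection p under 0.05 on at least 2 arrays, 21075 of 47321 probes) and limma 3.58.1 with R 4.3.3, two-sided, with Benjamini-Hochberg adjustment. The fit was also run on simulated arrays that all had the spread of the control pair. There it called 99 of 100 probes changed by 1 log2 unit, 100 of 100 changed by 2, and 11 unchanged probes. On the authors' normalized values the siTARBP2 arrays differed with an SD of 0.707 over probes, against 0.159 for the controls. The simulation lacks that spread, so it does not show what the fit could find on these arrays. On each array 41.0% to 45.7% of probes were detected, and the number of arrays limits the precision. The siTARBP2 arrays must stem from cells transfected apart, since their siRNAs differ, and their spread includes any difference between the siRNAs. Whether the controls were cultured apart is not stated. The p-values therefore measure only the spread between these arrays. An exact permutation test of 2 arrays against 2 cannot go under p = 0.333. Named genes were every record of both members, TARBP2, the genes of the fixed lists, the 5 protein-coding neighbours on each side and the 3 genes next in value on each side. The members and lists were chosen with earlier results of these data known. The lists were described by counts and medians, and 1 listed gene is not reported here. The windows of 0.05 around the members' values were added after seeing the data.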

Additional observations from a re-analysis of the deposited data

How the results depend on the processing

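With 1 record, ZNF395 must have the same value under every choice of record. The APP value was 0.36 by the mean, the median or curated records only, 0.546 by the highest record and 0.175 by the lowest. With 2 records that are both above 0, no choice could turn the sign, so nothing is read from its being kept. The number of genes above APP in the authors' deposited table, 1232 by the mean, was 572 by the highest record of each gene and 2687 by the lowest. Ranked among records in place of genes, 4121 stood above NM_000484 and 707 above NM_201414. For ZNF395, 340 to 424 genes stood above it over the choices of record, and 516 records stood above its record. At a threshold of 0.4 in place of 0.2, the authors' deposited table had 5 genes of the 5 lists above and 6 below, against 13 and 12, as a stricter bound must give fewer. No probe passed the limma test under 7 alternatives of normalization, filter or variance, with 613 to 1740 probes at an unadjusted p under 0.05. The 1740 were of 47321 probes with no filter on detection, and each count was under a share of 0.05 of its probes. With 1 array left out the count ran from 0 to 12035, where an array alone in its group was taken to vary like the other pair. With the replicate number as a block, limma passed 0 probes (lowest adjusted p 0.339), and 1019 had an unadjusted p under 0.05. In the siTARBP2 group the numbers name different siRNAs, and nothing says that they pair the arrays with the controls. Deviations of same-numbered arrays had a correlation of -0.042 over probes. That value cannot settle pairing, since the siTARBP2 arrays differed far more (SD 0.707) than the controls (SD 0.159) on the authors' normalized values. Near the members' values, the share of probes with both siTARBP2 arrays above both controls was 66.6% (ZNF395) and 50.7% (APP) on neqc values, against 61.0% and 58.2%, an alternative chosen after seeing the data. Detection over background limits what dim probes can show, and the members' signal was not read.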
